A study of Mus musculus with 20 samples.

Results

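Transcripts of 10 genes for Wnt ligands and secreted Wnt antagonists were followed through adipocyte differentiation of 3T3-L1 cells, mouse preadipocytes in culture that become lipid-filled adipocytes once given inducing hormones. The genes were taken by symbol from the deposited RNA-seq tables, which list 33581 genes: the ligands Wnt4, Wnt5a, Wnt5b, Wnt6, Wnt10a and Wnt10b, the secreted Frizzled-related proteins Sfrp1 and Sfrp2, and the Dickkopf proteins Dkk2 and Dkk3. Cells carried either 1 SMARTvector lentiviral shRNA against Tcf7l2 or a scrambled shRNA from the same lentiviral system, and both populations were puromycin-selected mixtures, not clones. Tcf7l2 knockdown cells and scrambled cells were each sampled at days 0, 2, 4, 6 and 8 of differentiation, without routine addition of a thiazolidinedione, with 2 libraries per hairpin and day, numbered 1 and 2, which makes 20 libraries in 10 groups. With 1 construct per arm, an effect of Tcf7l2 and an effect of that hairpin or its insertion cannot be told apart. Whether both libraries of a group stem from different cultures is not stated in the labels. A p-value here therefore measures the spread among these libraries, and that spread may be technical.

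Wnt proteins are secreted lipid-modified ligands that bind Frizzled receptors. With the co-receptors Lrp5 and Lrp6 they stabilise beta-catenin, which acts on genes through the Tcf/Lef factors, of which Tcf7l2 is one; with Ror2 or Ryk, Wnt5a in particular signals largely without beta-catenin. Sfrp proteins bind Wnt ligands outside the cell, whereas Dickkopf proteins such as Dkk2 bind Lrp5 and Lrp6, and Dkk3 is a divergent member of that family. In preadipocytes the beta-catenin branch is known to hold back adipogenesis, with Wnt6, Wnt10a and Wnt10b as the ligands tied to that brake, while Wnt4 and Wnt5b have been described as favouring adipocyte formation.

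Recovered reads per library totalled 20153362 to 33973608, with 19838 to 21219 genes having at least 1 read and at most 2.00% of reads in any 1 gene. Levels are given in RPM, a gene's reads per 1000000 recovered reads of the library. With 2 libraries per hairpin and day, whether libraries overlap is a description, and the share of all genes without overlap was not counted. Tcf7l2 itself stood at 16.4 ± 3.31 RPM in the 10 knockdown libraries and 47.3 ± 7.49 RPM in the 10 scrambled libraries (mean ± SD), and its libraries did not overlap between hairpins at any of the 5 days. All 16 mature adipocyte markers were lower in knockdown cells, with a median effect, averaged over the days, of -1.40 on the log2 scale. By that test 25.4% of all genes were called. All 10 interferon-response genes were higher, with a median of 2.54. Of 5 tested macrophage markers 1 was higher, with sums over the list of 26.9 to 39.0 RPM in knockdown libraries and 18.5 to 36.0 RPM in scrambled libraries. Emr1 (macrophage), Myod1 and Ckm (muscle) and Epcam (epithelium) had no read in any library, but other genes of their lists did. The 4 muscle markers summed to 1.57 to 11.3 RPM in knockdown libraries and 1.72 to 38.8 RPM in scrambled libraries. Of these, Des had means of 6.62 and 14.0 RPM. The 4 epithelial markers summed to at most 0.483 RPM in knockdown libraries and 1.77 RPM in scrambled libraries. The scrambled libraries numbered 2 of days 4, 6 and 8 stood apart: their 16 adipocyte markers summed to 16732, 32683 and 35992 RPM, against 5402, 14410 and 8399 RPM in the scrambled libraries numbered 1 of those days. The 6 knockdown libraries of those days had 2736 to 6561 RPM. For the 10 genes, results that rest on these 3 scrambled libraries are given with and without them. Effects on marker lists and other genes of the pathway come from all 20 libraries only.

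Promoter sequences (250 bases before to 50 after the transcription start, RefSeq, build GRCm38.p6) were found for 6 of the 10 genes. None was found for Wnt5a, Wnt10a, Sfrp1 and Dkk3. The 4 printed here were chosen among those 6 genes. Wnt4 is the ligand that peaked at day 2, and Sfrp2 the antagonist with its lowest level on that day. Wnt6 is a ligand higher in knockdown cells, and Dkk2 an antagonist lower in them. Capitals mark the GC box GGGCGG, read on either strand (CCGCCC), and the TATA box TATAAA.
Wnt4 promoter, chr4:137277385-137277684, plus strand: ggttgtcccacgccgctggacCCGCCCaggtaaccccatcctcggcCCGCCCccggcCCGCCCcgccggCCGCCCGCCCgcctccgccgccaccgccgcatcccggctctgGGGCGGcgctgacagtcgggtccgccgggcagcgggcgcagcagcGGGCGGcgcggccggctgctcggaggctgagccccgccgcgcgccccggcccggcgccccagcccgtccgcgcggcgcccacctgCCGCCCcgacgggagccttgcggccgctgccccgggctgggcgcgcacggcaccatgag
Sfrp2 promoter, chr3:83766071-83766370, plus strand: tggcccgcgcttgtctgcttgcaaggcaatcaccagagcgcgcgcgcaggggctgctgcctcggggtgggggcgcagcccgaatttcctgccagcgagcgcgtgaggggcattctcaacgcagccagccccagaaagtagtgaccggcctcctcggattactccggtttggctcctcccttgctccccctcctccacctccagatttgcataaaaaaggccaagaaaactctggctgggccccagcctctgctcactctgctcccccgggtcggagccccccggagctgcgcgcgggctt
Wnt6 promoter, chr1:74771642-74771941, plus strand: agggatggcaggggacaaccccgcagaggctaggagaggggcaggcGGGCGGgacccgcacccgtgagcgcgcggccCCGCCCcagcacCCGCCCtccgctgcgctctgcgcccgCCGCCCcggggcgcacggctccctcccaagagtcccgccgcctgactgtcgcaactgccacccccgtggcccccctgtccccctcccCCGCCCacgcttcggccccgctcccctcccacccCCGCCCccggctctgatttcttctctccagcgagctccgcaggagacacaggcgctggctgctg
Dkk2 promoter, chr3:132085042-132085341, plus strand: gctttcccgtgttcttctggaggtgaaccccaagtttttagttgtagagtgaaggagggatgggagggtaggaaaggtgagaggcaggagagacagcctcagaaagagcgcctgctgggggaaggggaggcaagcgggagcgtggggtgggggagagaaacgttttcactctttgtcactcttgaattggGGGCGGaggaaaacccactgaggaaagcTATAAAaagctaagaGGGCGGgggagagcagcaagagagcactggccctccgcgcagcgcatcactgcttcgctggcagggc
The Wnt4 window was 84.3% G and C with 8 GC boxes, counting overlapping matches, and the Wnt6 window 76.7% with 6 GC boxes. The Sfrp2 window, at 66.0% G and C, held neither motif. The Dkk2 window, at 57.7%, held 2 GC boxes and 1 TATAAA that begins at position -32 from the start. Over all 32851 RefSeq promoters of this length the median G and C content was 52.7%, 35.7% held a GC box and 13.6% held TATAAA on either strand. The Tcf/Lef words CTTTGAA and CTTTGAT, searched on both strands, were in 8.65% of all promoters and in none of these 4 windows, which says only that these letters do not occur within them. Of the other 4 windows, 1 of the 3 that belong to Wnt5b held 1 such word, at position -71, and the Wnt10b window held none.

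Per base of transcript, Sfrp2, Wnt5a, Wnt4 and Wnt6 made up nearly all of the signal from these genes. Group means, divided by the union of exons in GENCODE M21, ran from 2.38 to 38.4 RPKM (RPM per kilobase of exon) for Sfrp2, from 6.01 to 12.996 RPKM for Wnt5a, from 1.76 to 18.2 RPKM for Wnt4 and from 2.69 to 6.95 RPKM for Wnt6. Dkk3 ran from 0.160 to 1.63 RPKM. The highest group mean of any of the other 5 genes was 0.276 RPKM, that of Wnt10a in scrambled cells at day 0. The leading gene by this measure depended on the day: in scrambled cells Sfrp2 led at day 0 with 34.7 RPKM, and Wnt4 led at day 2 with 18.2 RPKM. In knockdown cells at day 0, Sfrp2 had 13.5 RPKM beside 12.996 RPKM for Wnt5a. Of the 10 genes, 8 reached a mean normalised count of 10 in at least 1 day table and were tested, and Wnt5b and Sfrp1 did not. Wnt10a reached it only at day 0 (13.8) and Dkk2 only at day 8 (16.2), each on the day of its highest mean.

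**Figure D1:**
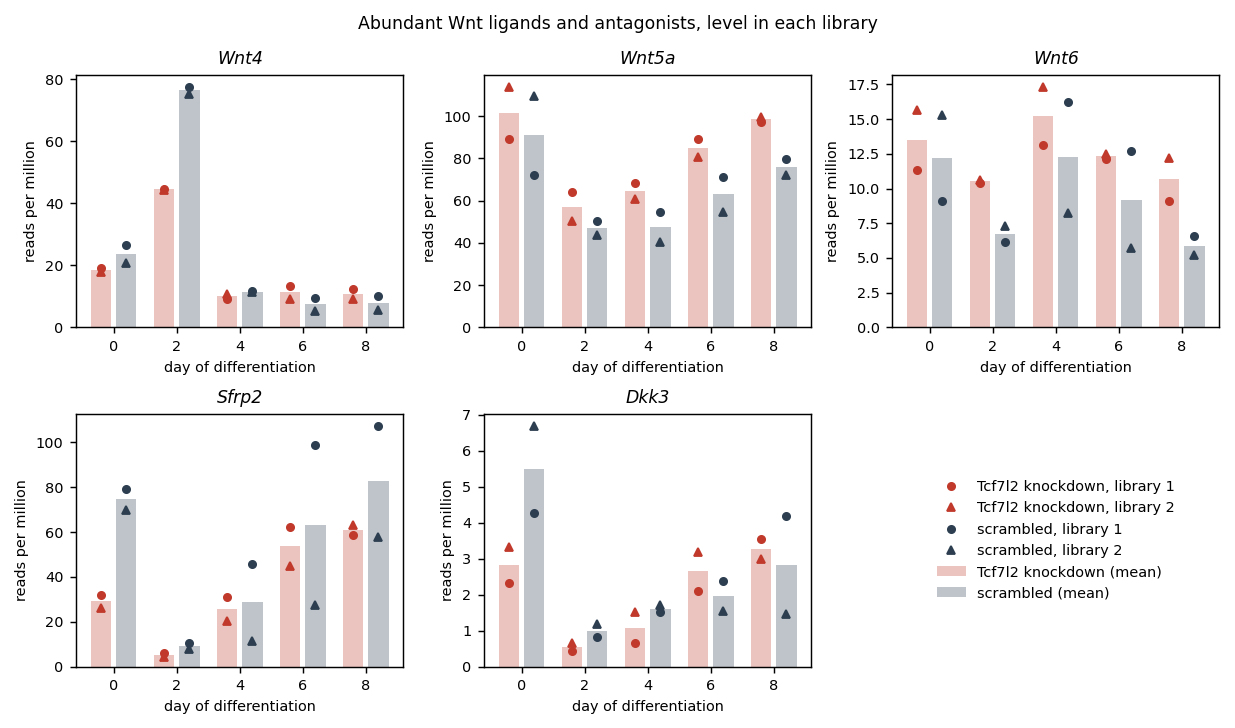
RPM in each library (points, library 1 as circles and library 2 as triangles) and group means (bars) of Wnt4, Wnt5a, Wnt6, Sfrp2 and Dkk3, by day of differentiation, with Tcf7l2 knockdown cells left of scrambled cells. Wnt4 peaks at day 2 in both, at 44.2 and 44.6 RPM in knockdown libraries and 75.4 and 77.6 RPM in scrambled libraries, where Sfrp2 and Dkk3 have their lowest levels.

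Wnt4 was a transient transcript of early differentiation, and its peak was lower in knockdown cells. At day 0 it had 19.2 and 17.9 RPM in knockdown libraries 1 and 2, against 26.5 and 20.7 RPM in scrambled libraries 1 and 2. At day 2 it had 44.6 and 44.2 RPM in knockdown cells, against 77.6 and 75.4 RPM in scrambled cells. It had 9.26 and 10.6 RPM in knockdown cells and 11.6 and 11.4 RPM in scrambled cells at day 4. On each of these 3 days both knockdown libraries lay below both scrambled ones. At day 6 the values were 13.3 and 9.23 RPM in knockdown cells and 9.55 and 5.21 RPM in scrambled cells. At day 8 they were 12.4 and 9.03 RPM in knockdown cells and 10.2 and 5.50 RPM in scrambled cells. On both late days the libraries of the hairpins overlapped, and the mean was higher in knockdown cells.

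The early rise and fall of Wnt4 passed the test in both cell populations. From day 0 to day 2 it rose by a log2 difference of 1.40 ± 0.22 (SE) in knockdown cells (adjusted p = 0.000976, limma voom on recovered reads), a ratio of means of 2.39, and by 1.81 ± 0.22 in scrambled cells (adjusted p = 0.000103), a ratio of 3.24. From day 2 to day 4 it fell, with log2 differences of -2.20 ± 0.24 in knockdown cells (adjusted p = 0.000414) and -2.76 ± 0.23 in scrambled cells (adjusted p = 7.40e-05). Between days 0 and 8 the log2 difference was -0.81 ± 0.25 in knockdown cells (adjusted p = 0.200) and -1.59 ± 0.26 in scrambled cells (adjusted p = 0.00489). The call in scrambled cells was lost without scrambled library 2 of day 8 (-1.21). Without all 3 late scrambled libraries it held (-1.20), and the difference in knockdown cells passed as well (-0.82). In order of level, the day 2 groups came first and the day 0 groups next, each without overlap with its neighbour, and the 6 groups of days 4 to 8 formed a run in which every neighbouring pair overlapped.

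At day 2 the Wnt4 mean in knockdown cells was 58.1% of that in scrambled cells. The log2 difference in the deposited values was -0.67 ± 0.22, which did not pass over all 16497 genes (adjusted p = 0.527, limma). With the library number as a block within the day, it passed (adjusted p = 0.0221), as it did in a fit of the day 2 table alone (adjusted p = 0.0327). In the authors' deposited table the log2 fold change of Wnt4 at day 2 was -0.70 with an adjusted p of 0.000120, below 0.05 as for 4.72% of the genes given one on that day. With the block the late differences of 0.47 at day 6 and 0.35 at day 8 also passed (adjusted p = 0.0222 and 0.0426), against 0.210 and 0.346 without it. Without the 3 late scrambled libraries these late differences were 0.19 and 0.06 (adjusted p = 0.704 and 0.927). Averaged over the days, the effect on Wnt4 was -0.06 ± 0.13 (adjusted p = 0.753) and, without those 3 libraries, -0.23 ± 0.10 (adjusted p = 0.138). Whether the 5 daily differences of Wnt4 were equal was tested with limma voom on recovered reads. The unadjusted p was 0.0107 and the adjusted p 1.00, so the change from a lower to a higher mean did not pass. That test called none of the 16497 genes (0% called), with 464 genes at an unadjusted p under 0.05, while a trend fit on log2 RPM called 4 genes, none of them among the 8 genes tested here.

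Sfrp2, a secreted decoy that binds Wnt ligands, ran opposite to Wnt4: it had its lowest group means at day 2, in both cell populations. On day 0 it had 31.9 and 26.2 RPM in knockdown libraries 1 and 2, against 79.3 and 70.0 RPM in scrambled libraries. At day 2 it had 6.17 and 4.09 RPM in knockdown cells and 10.6 and 8.01 RPM in scrambled cells. On these days both knockdown libraries lay below both scrambled ones. On day 4 it had 30.8 and 20.4 RPM in knockdown cells and 45.8 and 11.5 RPM in scrambled cells. On day 6 it had 62.4 and 44.8 RPM in knockdown cells and 99.0 and 27.4 RPM in scrambled cells. On day 8 it had 58.9 and 63.2 RPM in knockdown cells and 107 and 57.8 RPM in scrambled cells. On these 3 days both knockdown libraries lay between the 2 scrambled libraries, of which library 2 was the lower.

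The fall of Sfrp2 between days 0 and 2 passed the test, with log2 differences of -2.38 ± 0.73 in knockdown cells (adjusted p = 0.0419) and -2.95 ± 0.64 in scrambled cells (adjusted p = 0.00527). The later increase, between days 2 and 4, did not pass, at 2.25 ± 0.73 in knockdown cells (adjusted p = 0.0998) and 1.30 ± 0.66 in scrambled cells (adjusted p = 0.295). Without the 3 late scrambled libraries it passed in both, at 2.25 in knockdown cells and 2.29 in scrambled cells. In that fit scrambled library 1, at 45.8 RPM, alone stood for day 4. Scrambled library 2 of that day, which it left out, had 11.5 RPM, near the 10.6 and 8.01 RPM of day 2. The call for the fall in knockdown cells did not hold in 14 of 20 fits with 1 library omitted. The one in scrambled cells was lost without scrambled library 2 of day 2 (adjusted p = 0.0649). At day 0 the mean in knockdown cells was 38.9% of that in scrambled cells, with a log2 difference of -1.27 ± 0.51 in the deposited values (adjusted p = 0.625). The authors' deposited table gave -1.11 for Sfrp2 at day 0 with an adjusted p of 1.29e-06, where 1.63% of the genes given one were below 0.05. Without the 3 late scrambled libraries numbered 2, which take no part in the day 0 means but set the spread shared by all groups, the same difference passed (adjusted p = 0.00960, with 1.59% of genes called).

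Averaged over the 5 days, Sfrp2 differed by -0.42 ± 0.23 between knockdown and scrambled cells and did not pass (adjusted p = 0.194), although its mean in RPM was lower in knockdown cells at 5 of 5 days. On the fitted log2 scale the difference at day 4 was 0.08. Without the 3 late scrambled libraries the average was -0.83 ± 0.11 (adjusted p = 9.25e-05), with 20.7% of genes called by that fit. Without scrambled library 2 of day 4 alone it was -0.57 (adjusted p = 0.0479). Among libraries numbered 1, Sfrp2 was lower in knockdown cells at 5 of 5 days. Among libraries numbered 2 it was lower at 2 days and higher at 3. In those 3 scrambled libraries numbered 2, Sfrp2 was lower and the summed adipocyte markers higher than in scrambled library 1 of the same day, and whether the markers have a part in the Sfrp2 levels was not tested. In libraries of mixed cells, fewer cells of a type and less RNA per cell cannot be told apart.

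**Figure D2:**
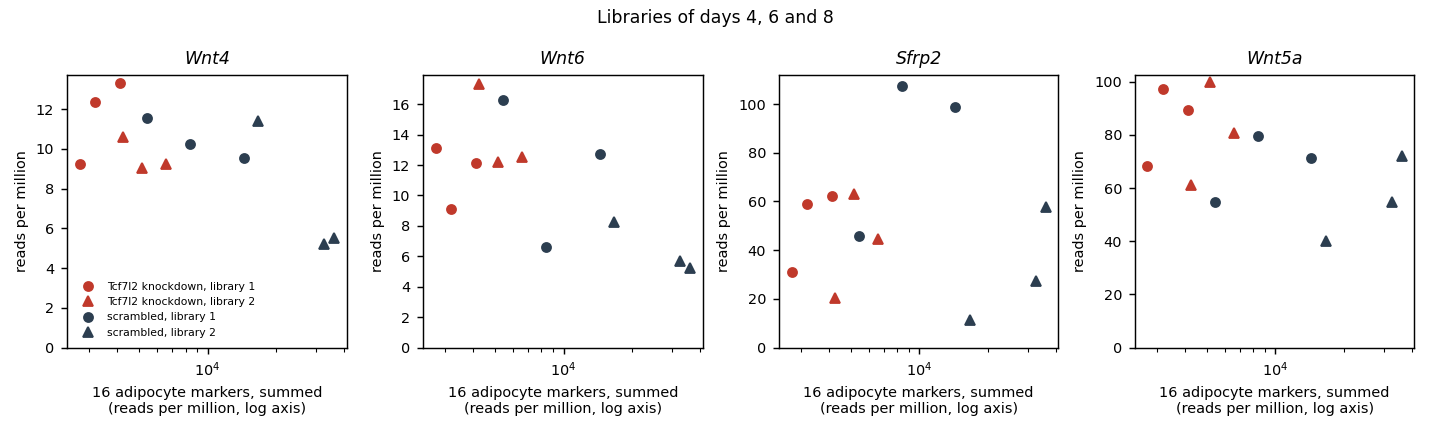
Level of Wnt4, Wnt6, Sfrp2 and Wnt5a (RPM) against the summed level of 16 mature adipocyte markers (RPM, log axis) in the 12 libraries of days 4, 6 and 8, Tcf7l2 knockdown in red and scrambled in dark blue, circles for libraries 1 and triangles for libraries 2. The 3 scrambled libraries numbered 2, at 16732 to 35992 RPM of markers, hold the highest marker sums, and 1 of them has the lowest Sfrp2 level of the 12, at 11.5 RPM.

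Wnt5a, a ligand known mainly for signalling without beta-catenin, was the most evenly expressed of the abundant genes and was higher in knockdown cells. At day 0 it had 89.3 and 114 RPM in knockdown libraries 1 and 2, against 72.2 and 109.5 RPM in scrambled libraries. At day 2 it had 64.2 and 50.1 RPM in knockdown cells and 50.4 and 43.7 RPM in scrambled cells. On these days the libraries overlapped. It had 68.4 and 61.0 RPM in knockdown cells and 54.8 and 40.3 RPM in scrambled cells at day 4. It had 89.2 and 80.9 RPM in knockdown cells and 71.2 and 54.6 RPM in scrambled cells at day 6. It had 97.4 and 99.7 RPM in knockdown cells and 79.5 and 72.2 RPM in scrambled cells at day 8. From day 4 on, both knockdown libraries lay above both scrambled ones. Within each library number, a second view of the same libraries, the knockdown library was the higher at 5 of 5 days.

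The average effect on Wnt5a was 0.31 ± 0.08 in the deposited log2 values (adjusted p = 0.0107, limma, 10 libraries per hairpin), and 0.24 ± 0.08 without the 3 late scrambled libraries (adjusted p = 0.0467). Leaving out any 1 library kept it below 0.05, with adjusted p from 0.00117 to 0.0242. No single day passed, with adjusted p from 0.240 at day 6 to 1 at days 0 and 2. With the library number as a block, day 6 passed (0.39, adjusted p = 0.0364). Wnt5a fell between days 0 and 2 with log2 differences of -0.69 ± 0.21 in knockdown cells (adjusted p = 0.0380) and -0.83 ± 0.21 in scrambled cells (adjusted p = 0.0110). The call in knockdown cells was lost in 9 of 20 fits that left out 1 library. The one in scrambled cells was lost without scrambled library 2 of day 0 (-0.52, adjusted p = 0.125) and without scrambled library 2 of day 2 (-0.74, adjusted p = 0.0966).

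Wnt6, a ligand of the beta-catenin branch encoded next to Wnt10a on chromosome 1, was also higher in knockdown cells, with a less stable test. On day 0 it had 11.4 and 15.7 RPM in knockdown libraries 1 and 2, against 9.08 and 15.3 RPM in scrambled libraries. At day 2 it had 10.4 and 10.6 RPM in knockdown cells and 6.14 and 7.30 RPM in scrambled cells. The libraries overlapped at day 0 and not at day 2. On day 4 it had 13.1 and 17.3 RPM in knockdown cells and 16.3 and 8.24 RPM in scrambled cells. On day 6 it had 12.1 and 12.5 RPM in knockdown cells and 12.7 and 5.68 RPM in scrambled cells. On day 8 it had 9.11 and 12.2 RPM in knockdown cells and 6.58 and 5.20 RPM in scrambled cells. The libraries overlapped at days 4 and 6 and were apart at day 8.

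The average effect on Wnt6 was 0.36 ± 0.12 (adjusted p = 0.0361). It was lost in 13 of 20 fits that left out 1 library, whose adjusted p reached 0.0713, and without the 3 late scrambled libraries it was 0.20 ± 0.10 (adjusted p = 0.195). Among libraries numbered 1, Wnt6 was higher in knockdown cells at 3 of 5 days, and among libraries numbered 2 at 5 of 5 days. With all 20 libraries, no day and no step of the time course passed for Wnt6. The largest step in scrambled cells was then a log2 difference of -1.01 ± 0.39 between days 0 and 8 (adjusted p = 0.112, limma voom). Without the 3 late scrambled libraries, the rise between days 2 and 4 in scrambled cells passed (1.21, against 0.75 with them). In that fit scrambled library 1 alone stood for day 4.

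Wnt10a and Wnt10b, ligands known to restrain adipogenesis through beta-catenin, were present at only a few reads per library. Wnt10a had 9 and 11 reads in knockdown libraries 1 and 2 at day 0, against 13 and 23 reads in scrambled libraries. It had 3 and 2 reads in knockdown cells and 8 and 9 reads in scrambled cells at day 2. It had 3 and 3 reads in knockdown cells and 15 and 14 reads in scrambled cells at day 4. On these 3 days the knockdown libraries lay below the scrambled ones in RPM. It had 4 and 3 reads in knockdown cells and 13 and 6 reads in scrambled cells at day 6. It had 4 and 9 reads in knockdown cells and 8 and 8 reads in scrambled cells at day 8. The hairpins were still apart in RPM at day 6 and overlapped at day 8. Over all libraries this made 51 reads in knockdown cells and 117 reads in scrambled cells.

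The average effect on Wnt10a was -0.23 ± 0.04 in the deposited values (adjusted p = 0.00164), where values of few reads are compressed, and -1.20 ± 0.22 on recovered reads (adjusted p = 0.00103). Wnt10a met the filter only at day 0, where its mean was higher in scrambled cells, so this call is not free of the filter. With no filter the average effect was -0.23 (adjusted p = 0.00235, limma). It stayed below 0.05 in all 20 fits that left out 1 library and without the 3 late scrambled libraries (adjusted p = 0.00199). Among single days, day 4 came nearest in the deposited values (-0.38, adjusted p = 0.0747) and passed with the library number as a block (adjusted p = 0.0426), and also without either scrambled library of day 6 (adjusted p = 0.0288 and 0.0295). With the block day 6 passed as well (-0.28, adjusted p = 0.0435). Wnt10a was tested only because of its day 0 level, so a fall from that day is not free of the filter. Between days 0 and 2 it fell in knockdown cells, with a log2 difference of -1.78 ± 0.50 (adjusted p = 0.0282). In scrambled cells the same step was -1.07 ± 0.39 (adjusted p = 0.0616). The call in knockdown cells was lost without either knockdown library of day 0 or of day 2, with adjusted p of 0.0673, 0.0933, 0.0984 and 0.194.

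Wnt10b, which lies beside Wnt1 on chromosome 15, passed neither at a single day nor on average, with an average effect of 0.12 ± 0.07 (adjusted p = 0.182). It had 14 and 14 reads in knockdown cells and 16 and 15 reads in scrambled cells at day 0. On day 2 it had 8 and 9 reads in knockdown cells and 4 and 6 reads in scrambled cells. On day 4 it had 3 and 10 reads in knockdown cells and 9 and 7 reads in scrambled cells. The hairpins overlapped at days 0 and 4. On day 6 it had 9 and 24 reads in knockdown cells and 8 and 3 reads in scrambled cells. On day 8 it had 18 and 27 reads in knockdown cells and 16 and 7 reads in scrambled cells. In RPM the knockdown libraries lay above the scrambled ones at days 2, 6 and 8. The day 8 difference of 0.34 (adjusted p = 0.140) rested on which scrambled library was kept: it was 0.52 once scrambled library 1 was left out (adjusted p = 0.0213) and 0.17 once scrambled library 2 was (adjusted p = 0.768). It was also 0.17 without the 3 late scrambled libraries (adjusted p = 0.603).

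Wnt5b, the close relative of Wnt5a, fell below the filter on mean counts, with 20 reads over the 10 knockdown libraries and 63 reads over the 10 scrambled ones. Knockdown libraries 1 and 2 had 1 and 3 reads at day 0, 3 and 4 at day 2, 0 and 3 at day 4, 1 and 2 at day 6, and 1 and 2 at day 8. Scrambled libraries 1 and 2 had 2 and 1 reads at day 0, 7 and 14 at day 2, 5 and 4 at day 4, 5 and 6 at day 6, and 2 and 17 at day 8. In RPM both knockdown libraries lay below both scrambled ones at days 2, 4, 6 and 8, and scrambled library 2 of day 8 alone held 17 of the 63 reads. With no filter the average effect on Wnt5b was -0.21 ± 0.07 (adjusted p = 0.0468), where 14.7% of the 25933 genes then tested were called, and no day passed.

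**Figure D3:**
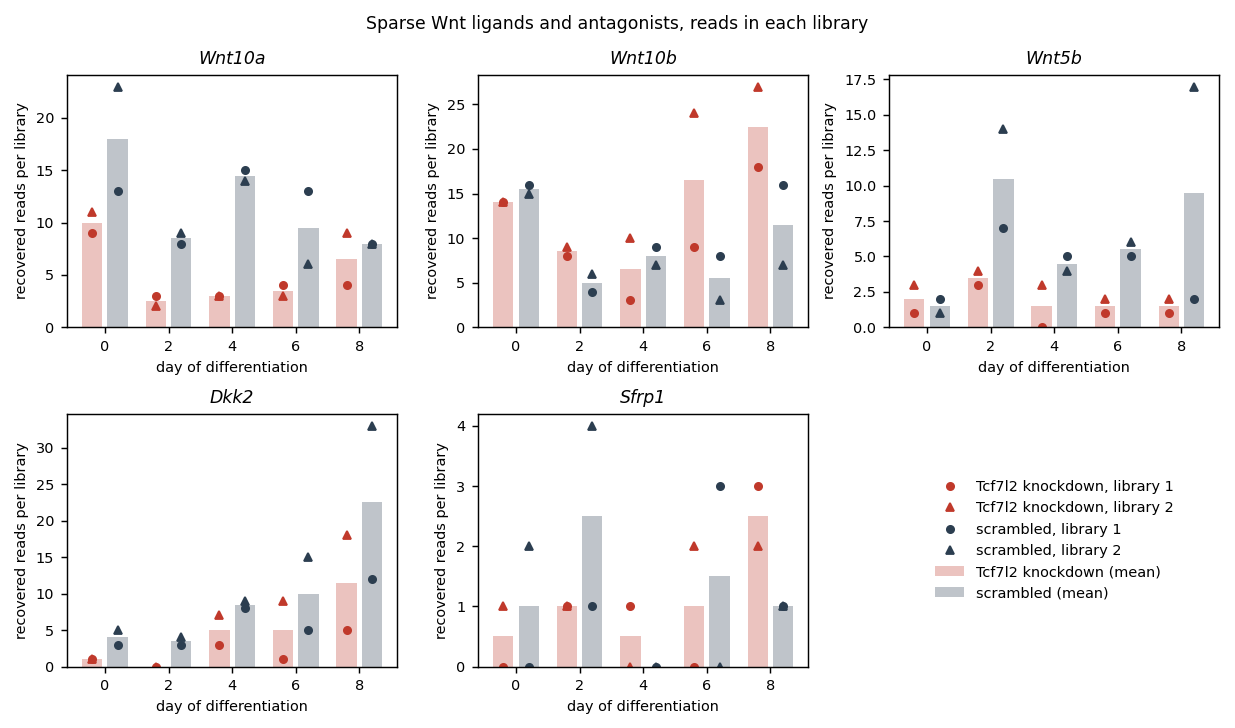
Recovered reads per library (points) and group means (bars) of the sparse genes Wnt10a, Wnt10b, Wnt5b, Dkk2 and Sfrp1, by day of differentiation, with Tcf7l2 knockdown cells left of scrambled cells. Wnt10a and Dkk2 have fewer reads in knockdown than in scrambled cells, with sums over 10 libraries of 51 against 117 and 45 against 97, and Sfrp1 never exceeds 4 reads.

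Dkk2, an antagonist that occupies Lrp5 and Lrp6, was lower in knockdown cells and had its highest group mean at day 8 in both populations. It had 1 and 1 reads in knockdown libraries 1 and 2 at day 0, against 3 and 5 reads in scrambled libraries. It had 0 and 0 reads in knockdown cells and 3 and 4 reads in scrambled cells at day 2. It had 3 and 7 reads in knockdown cells and 8 and 9 reads in scrambled cells at day 4. On these 3 days the hairpins did not overlap in RPM. It had 1 and 9 reads in knockdown cells and 5 and 15 reads in scrambled cells at day 6. It had 5 and 18 reads in knockdown cells and 12 and 33 reads in scrambled cells at day 8. On these days the hairpins overlapped, library 2 had more reads than library 1 in both, and within each library number the knockdown library was the lower at 5 of 5 days.

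The average effect on Dkk2 was -0.24 ± 0.07 in the deposited values (adjusted p = 0.0177) and -1.27 ± 0.34 on recovered reads (adjusted p = 0.0115). Dkk2 met the filter only at day 8, where its mean was higher in scrambled cells, so this call is not free of the filter. With no filter the average effect was -0.24 (adjusted p = 0.0234, limma). All 20 fits that left out 1 library kept it below 0.05, and it was lost without the 3 late scrambled libraries (-0.16, adjusted p = 0.0568). With the library number as a block, day 6 and day 8 passed (-0.28 and -0.34, adjusted p = 0.0471 and 0.0302), against 0.311 and 0.242 without it. No step of its time course passed. The largest was between days 2 and 4 in knockdown cells (3.37 ± 0.96, adjusted p = 0.0589), which passed with no filter (adjusted p = 0.0265), with scaling to total reads (adjusted p = 0.0473) and without the 3 late scrambled libraries (adjusted p = 0.0313). Both knockdown libraries of day 2 had 0 reads, so the size of that step depends on the offset added before taking logs. Between days 0 and 8 the log2 difference was 2.89 ± 0.86 in knockdown cells (adjusted p = 0.173) and 2.15 ± 0.67 in scrambled cells (adjusted p = 0.0559). That step ends on the only day at which Dkk2 reached the filter. Without the 3 late scrambled libraries the differences at days 6 and 8 were -0.11 and -0.08 (adjusted p = 0.801 and 0.864). Without scrambled library 1 of day 8, that day's difference was -0.59 (adjusted p = 0.0244). Dkk2 had 45 reads over the 10 knockdown libraries and 97 over the 10 scrambled ones, so these differences rest on few reads.

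Dkk3, the divergent Dickkopf family member, had its lowest group means at day 2 in both populations, as Sfrp2 did. On day 0 it had 2.31 and 3.32 RPM in knockdown libraries 1 and 2, against 4.27 and 6.69 RPM in scrambled libraries. At day 2 it had 0.419 and 0.653 RPM in knockdown cells and 0.816 and 1.18 RPM in scrambled cells. On both days the knockdown libraries lay below the scrambled ones. On day 4 it had 0.656 and 1.52 RPM in knockdown cells and 1.51 and 1.70 RPM in scrambled cells. On day 6 it had 2.11 and 3.20 RPM in knockdown cells and 2.37 and 1.54 RPM in scrambled cells. On day 8 it had 3.55 and 2.99 RPM in knockdown cells and 4.18 and 1.47 RPM in scrambled cells. On these 3 days the hairpins overlapped.

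Dkk3 fell between days 0 and 2 with log2 differences of -2.24 ± 0.58 in knockdown cells (adjusted p = 0.0190) and -2.35 ± 0.49 in scrambled cells (adjusted p = 0.00392). The call in knockdown cells was lost without knockdown library 2 of day 0 and without either knockdown library of day 2, with adjusted p of 0.0995, 0.143 and 0.0847. The average effect of knockdown was -0.11 ± 0.11 (adjusted p = 0.491), and no day passed. At day 0 the mean in knockdown cells was 51.4% of that in scrambled cells (-0.54 ± 0.24, adjusted p = 0.732).

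Sfrp1 was close to absent. It had 11 reads over the 10 knockdown libraries and 12 reads over the 10 scrambled libraries. No library had more than 4 reads.

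Counted over the 8 genes tested, 4 passed on average over the days, 2 of them higher and 2 lower in knockdown cells: Wnt5a and Wnt6 were higher, and Wnt10a and Dkk2 were lower. Over all 16497 genes 25.4% were called by the same fit, 12.3% higher and 13.2% lower. The median average effect was -0.09 over the 8 genes and -0.0028 over all genes. At single days 0 of the 8 passed on each of days 0, 2, 4, 6 and 8, where 0.224%, 0.267%, 1.61%, 4.12% and 5.75% of all genes were called (limma). At an unadjusted p under 0.05 the numbers were 3, 1, 2, 2 and 2 of 8, and voom on recovered reads also called 0 on each day. With the library number as a block, 0, 1, 1, 4 and 2 of the 8 passed on those days, where that fit called 0.800%, 0.776%, 3.10%, 18.0% and 17.1% of all genes. For the average effect the blocked fit called the same 4 genes and 35.9% of all genes. Without the 3 late scrambled libraries the average calls of Wnt6 (0.20) and Dkk2 (-0.16) were lost, and Sfrp2 (-0.83) was called. Those of Wnt5a (0.24) and Wnt10a (-0.25) held. That fit leaves 1 scrambled library on each of days 4, 6 and 8. The average fit counts the 10 libraries of a hairpin as independent, although they may share 1 selected population over the days. In the authors' deposited single-day tests (DESeq2), none of the 4 genes had an adjusted p below 0.05 where one was given. The lowest were 0.472 for Wnt5a (day 6) and 0.169 for Wnt6 (day 2). For Wnt10a and Dkk2 the lowest were 0.620 (day 4) and 0.859 (day 8).

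**Figure D4:**
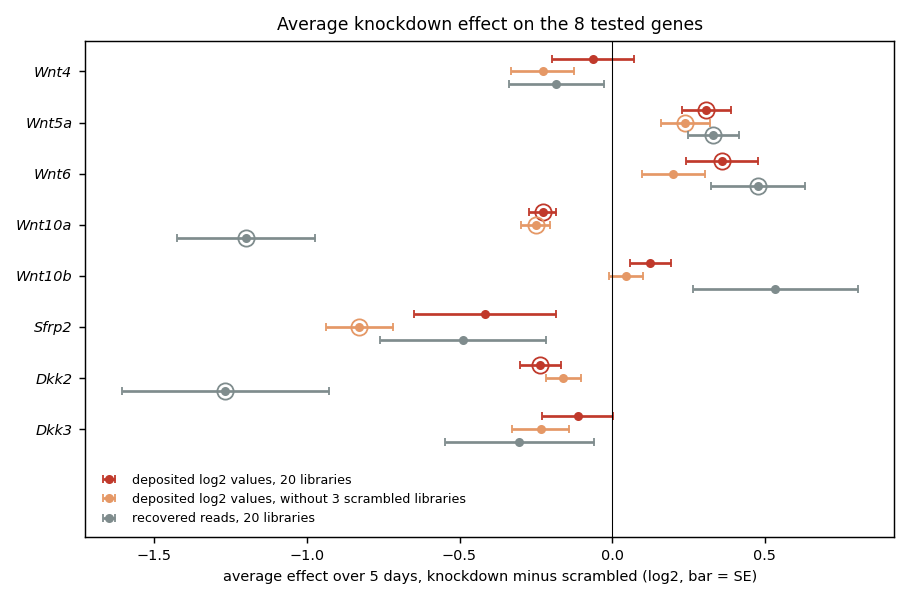
Average knockdown effect over 5 days (log2, knockdown minus scrambled, bars are SE) on the 8 tested genes, from the deposited log2 values with all 20 libraries, from the same without 3 late scrambled libraries, and from recovered reads; rings mark an adjusted p under 0.05. Wnt5a is ringed in all 3 fits on the higher side (0.31, 0.24 and 0.33) and Wnt10a on the lower side (-0.23, -0.25 and -1.20), whereas Sfrp2 is ringed in 1 of the 3 fits, the one without the 3 libraries.

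Along the time course, the first 2 days held most of the calls in these genes. Between days 0 and 2, 5 of 8 genes passed in knockdown cells (1 higher and 4 lower), where 15.4% of all genes were called, 6.76% higher and 8.61% lower. Among those lower was Wnt10a, which was tested only because of its day 0 level. In scrambled cells 4 of 8 passed (1 higher and 3 lower), where 24.7% of all genes were called, 11.1% higher and 13.6% lower. The 5 calls in knockdown cells fell to 1 without knockdown library 2 of day 0 or without either knockdown library of day 2. The gene that rose was Wnt4 in both, and Wnt5a, Sfrp2 and Dkk3 fell in both. Between days 2 and 4, Wnt4 was the 1 gene that passed, in knockdown cells (5.41% of all genes called) and in scrambled cells (4.64% called). None of the 8 passed between days 4 and 6 (0.309% called in knockdown and 0.636% in scrambled cells) or between days 6 and 8 (0% called in both). At an unadjusted p under 0.05 these 2 steps had 2 and 0 of the 8 in knockdown cells and 1 and 0 in scrambled cells, by limma voom. Between days 0 and 8, 0 of 8 passed in knockdown cells (0.673% called, 2 of 8 at an unadjusted p under 0.05) and Wnt4 in scrambled cells (10.5% called).

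The genes whose group means followed these 5 abundant genes most closely were taken by Pearson correlation of log2(RPM + 0.5) over the 10 groups, which share days and hairpins, so the values are descriptions. For Wnt4 they were the sparse Ifitm5 (r = 0.98, highest group mean 1.23 RPM), Ap1s2 (r = 0.98) and a predicted gene. For Wnt5a they were a predicted gene, Enpp3 (r = 0.98) and Phf12 (r = 0.98). For Wnt6, they were Spryd3 (r = 0.95), Sgk1 (r = 0.91) and Slc35a2 (r = 0.91). For Sfrp2 they included Tmem44 (r = 0.98) and Sema3b (r = 0.98). For Dkk3, Rab11fip5 (r = 0.97), Ltbp2 (r = 0.97) and Prr12 (r = 0.97) came first. Among the 5 genes themselves, Sfrp2 and Dkk3 had the highest r with each other, at 0.87, and Wnt4 and Sfrp2 the lowest, at -0.75. Over all genes tested, Dkk3 was only at rank 578 for likeness to Sfrp2, and Sfrp2 at rank 499 for likeness to Dkk3.

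Other parts of the pathway are given from lists chosen with earlier results of these data known. Of the 13 other Wnt ligands, 2 were tested, and Wnt9a rose in knockdown cells on average (0.27 ± 0.10, adjusted p = 0.0499). Wnt2b did not pass (adjusted p = 0.975), and Wnt3a and Wnt9b had no read. Of the 12 other secreted antagonists, 4 were tested and Sostdc1, which binds Lrp5 and Lrp6, rose (0.19 ± 0.06, adjusted p = 0.0216). Sfrp5 and Cer1 had -0.27 and -0.16 and did not pass (adjusted p = 0.0742 and 0.0576). All 3 were sparse. In knockdown and scrambled cells the means were 0.262 and 0.113 RPM for Sostdc1, and 0.111 and 0.372 RPM for Sfrp5. Those of Cer1 were 0.316 and 0.486 RPM. The abundant Igfbp4, at 762 RPM in knockdown and 691 RPM in scrambled cells, did not pass (0.04 ± 0.16, adjusted p = 0.887, limma). Each of these counts stands beside 25.4% of all genes called.

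Of the 5 tested genes of Wnt secretion and antagonist co-receptors, 2 rose and 0 fell, where 12.3% of all genes were called higher and 13.2% lower. Wls, the carrier that takes Wnt proteins to the cell surface, had 366 RPM in knockdown cells and 254 RPM in scrambled cells over the 10 libraries of each (0.54 ± 0.08, adjusted p = 0.000131). Gpc4, a cell-surface heparan sulfate proteoglycan, had 242 RPM in knockdown cells and 155 RPM in scrambled cells (0.58 ± 0.11, adjusted p = 0.00140). Of 13 tested receptors, 2 rose and 3 fell, beside the same shares of all genes. Lrp6, the co-receptor that Dkk2 binds, fell (-0.44 ± 0.09, adjusted p = 0.00182), as did Fzd4 (-0.63 ± 0.13, adjusted p = 0.00267) and Fzd3 (-0.42 ± 0.10, adjusted p = 0.00864). Ror2, a receptor of Wnt5a, rose by 0.42 ± 0.09 (adjusted p = 0.00284), at a mean of 2.17 RPM in knockdown cells and 1.13 RPM in scrambled cells. Ryk, also a Wnt receptor and named after its values were seen, rose by 0.19 ± 0.05 (adjusted p = 0.0180).

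Of 19 listed target and feedback genes of the pathway, 10 were tested, of which 3 rose and 2 fell. Over all genes 12.3% were called higher and 13.2% lower. Lgr4, a receptor for R-spondins, had 139 RPM in knockdown cells and 227 RPM in scrambled cells (-0.68 ± 0.10, adjusted p = 0.000174). Lef1, a relative of Tcf7l2 and itself a target, had 12.1 RPM in knockdown cells and 22.0 RPM in scrambled cells (-0.68 ± 0.11, adjusted p = 0.000440). The genes that rose were the matricellular genes Cyr61 (0.68 ± 0.14, adjusted p = 0.00273), Ctgf (0.47 ± 0.11, adjusted p = 0.00421) and Wisp2 (0.58 ± 0.16, adjusted p = 0.0154), the last named after its values were seen. Of these, Ctgf was the sparsest, at 1.00 RPM in knockdown cells and 0.263 RPM in scrambled cells. Medians of the average effect were 0.27 for the secretion list, -0.04 for receptors and 0.15 for targets, against -0.0028 for all genes. Preadipocyte and fibroblast markers moved with the hairpin as well, 6 of 11 higher and 1 lower, beside the same shares of all genes. Their part in these differences was not tested.

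**Figure D5:**
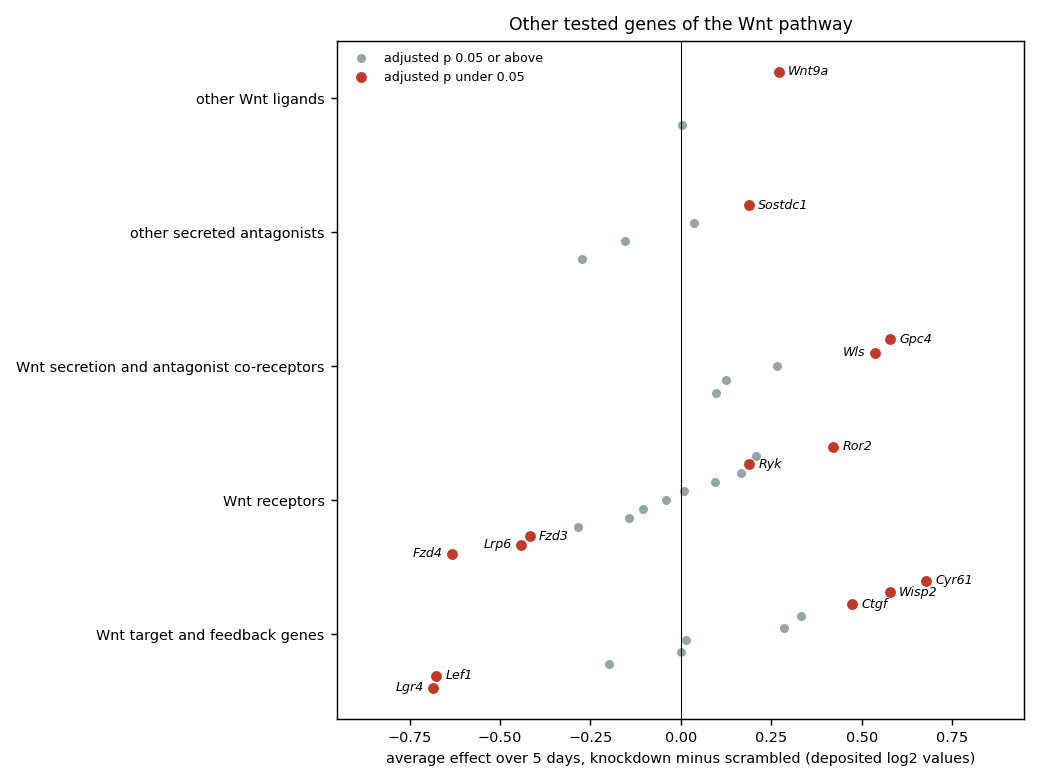
Average knockdown effect (deposited log2 values, knockdown minus scrambled) on the tested genes of 5 lists of the Wnt pathway, 1 point per gene, with genes at an adjusted p under 0.05 in red and named. The receptor and target lists hold red points on both sides of 0, from -0.68 for Lgr4 to 0.68 for Cyr61, and the 5 secretion and co-receptor genes all lie above 0, with Wls and Gpc4 in red.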

How the data were processed

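RNA from 3T3-L1 cells was made into libraries with the TruSeq RNA Sample Prep Kit V2, per the labels' protocols. Reads were aligned with TopHat2 2.0.13 and Bowtie2 2.2.3.0 to build mm9 and analysed with DESeq2 1.10.1, per the submitters' processing notes; the read counter and annotation are not given in the sources used here. For each day the authors deposited log2 values per library (variance-stabilised, scaled within that day's table), a mean normalised count as signal per gene, and a log2 fold change, its SE, a test score, a p-value and an adjusted p-value. All library columns were used.

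Inverting the variance-stabilising curve recovered whole reads in each library. RPM values used recovered totals, with a pseudocount of 0.5 on log scales. Knockdown effects were fitted to the deposited log2 values with limma 3.58.1 (R 4.3.3, trend and robust, statmod 1.5.0). All 10 groups shared 1 spread, with 10 residual degrees of freedom, and 14 for the effect averaged over days. Steps of the time course and differences of effects between days were fitted with limma voom to recovered reads. P-values were adjusted by Benjamini-Hochberg over 16497 genes that reached 10 mean normalised counts in any table, and called below 0.05. Self-tests on simulated data were run first. Deposited log2 values compress genes with few reads, and each day table was scaled separately.

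Libraries of the same number deviated together within a day (correlations of 0.783, 0.702, 0.551, 0.537 and 0.468 for days 0 to 8), so the number was read as a pairing within days from these correlations; the labels name no shared culture. Blocked values stand beside a knockdown effect where they change its call, and for steps of the time course in the closing section. Alternatives covered the filter, normalisation, recovered reads, the block, separate fits and leaving out libraries.

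The genes and lists were chosen with earlier results of these data known. Named are the 10 genes, Tcf7l2, the 3 genes most alike to each abundant one (1 of these is not reported here), and up to 4 genes of each list with the smallest adjusted p; Ryk and Wisp2 were added after their values were seen. Promoters come from RefSeq GRCm38.p6, used for sequence only.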

Additional observations from a re-analysis of the deposited data

Results flagged for a closer look

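Sfrp1 was picked out because all libraries of a day moved one way at day 2 and the other way at day 8. The knockdown minus scrambled difference of means was -0.0457 RPM at day 2 and 0.0661 RPM at day 8. The difference between the days was not tested, and no library had more than 4 reads of Sfrp1.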

How the results depend on the processing

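No value changed direction among called results under any alternative run. With the replicate block, the number of the 8 genes called for knockdown was 1, 1, 4 and 2 at days 2, 4, 6 and 8, against 0 on each of these days without it, and the block changed no call of the average effect. The block with recovered reads gave 2, 1 and 3 at days 2, 4 and 6. A separate fit per day table called 1 gene at day 2, and quantile normalization 1 at day 4. Without the 3 late scrambled libraries, 1 gene was called at day 0 and 1 at day 6. The average effect called 4 genes, 2 with a filter at 50, where Wnt10a and Dkk2 were no longer tested, and 5 with no filter, where Wnt5b passed as well. Without the 3 late scrambled libraries it no longer called Wnt6 and Dkk2, and it called Sfrp2. Leaving out 1 library at a time gave 0 to 1 genes at day 4, 0 to 2 at day 8 and 3 to 4 for the average.

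Between days of one hairpin, the correlations of same-numbered libraries ran from 0.149 to 0.648 in knockdown cells and from 0.0258 to 0.825 in scrambled cells. Since not all were over 0.1, the numbers were not taken as pairing over days, and blocked steps are given here only. The replicate block added calls for Sfrp2 between days 2 and 4 (adjusted p = 0.00764 in knockdown and 0.0360 in scrambled cells), for Dkk2 between days 2 and 4 in knockdown cells (0.0137) and between days 0 and 8 (0.0419 in knockdown and 0.00794 in scrambled cells), and in scrambled cells for Wnt10b between days 0 and 2 (0.0150) and Wnt10a between days 0 and 8 (0.0417). Wnt10a reached the filter only at day 0 and Dkk2 only at day 8, so their steps between days 0 and 8 are not free of it. In knockdown cells 1 gene was called between days 2 and 4, against 2 with no filter, 3 with the replicate block, 2 with scaling to total reads, 2 with a trend fit of log2 RPM and 3 without the 3 libraries. Between days 0 and 8, 0 were called, against 1 with the block and 2 without the 3 libraries. In scrambled cells 1 gene was called between days 2 and 4, against 2 with the block and 3 without the 3 libraries. Between days 0 and 8, 1 was called, against 3 with the block, 2 with scaling to total reads and 3 with the trend fit. Leaving out 1 library gave 1 to 5 genes for days 0 to 2 in knockdown cells, 1 to 3 for days 2 to 4 in knockdown cells, 2 to 6 for days 0 to 2 in scrambled cells and 0 to 3 for days 0 to 8 in scrambled cells. The cause of these changes was not tested. Depth limits Wnt10a, Wnt10b, Wnt5b, Dkk2 and Sfrp1, whose differences rest on a few reads per library.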
